A study of Homo sapiens with 6 samples.

Results

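The regions described here are 845 broad domains of H3K4me3 that were kept in both conditions of a metformin experiment on H1299, a human cell line from non-small cell lung cancer. They were chosen from the peak lists themselves: a control interval of 4000 bp or more became a member if it shared 1 bp or more with a metformin interval of that width. Members make up 845 of the 50585 control H3K4me3 intervals (1.67%) and 68.4% of the 1236 control intervals that reach this width. The metformin intervals they overlap, also 845 in number, are 53.0% of the 1595 metformin intervals that reach it. Chromatin immunoprecipitation followed by sequencing (ChIP-seq) gave 1 H3K4me3 and 1 H3K27me3 library from H1299 cells treated with 5 mM metformin, and 1 of each from H1299 cells without metformin. The duration of treatment is not given in the sources used here. With 1 library per mark and condition, no value below has a replicate error, no test between the conditions could be made, and intervals in brackets cover counting error only. Members are not replicates of a condition, since all of them come from the same libraries.

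H3K4me3, trimethylated lysine 4 of histone H3, is laid down by the SET1 and MLL methyltransferase complexes and sits mainly on nucleosomes around active promoters. Most promoters carry a narrow block of it, while a minority carry a block that runs on into the gene. Such broad domains are known from many cell types at genes that define the cell's identity and at highly and steadily transcribed genes, tumour suppressor genes among them. H3K27me3, the mark of Polycomb repression, is generally kept off them. Metformin, a biguanide used against type 2 diabetes, inhibits respiratory complex I. An hg19 gene annotation was not used here, so domains are called by their position, and gene clusters named below are background knowledge of the map that was not checked against an annotation.

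The domains were a small part of the intervals but a larger part of the marked sequence. Their 845 metformin partners covered 4.58 Mb, which is 8.30% of all H3K4me3 length in the metformin list, and the 845 members covered 4.47 Mb, or 9.04%, in the control list. The metformin width, taken as that of the longest overlapping metformin interval of 4000 bp or more, ran from 4002 to 14452 bp with a median of 5038 bp, and the control width ran from 4000 to 14292 bp with a median of 4942 bp. Of the members, 839 met 1 broad metformin interval and 6 met 2, while 6 metformin intervals took in 2 members each. Most members were not far above the limit: their upper quartile was 5919 bp after metformin and 5714 bp in control. A width of 10000 bp or more was reached by 15 members after metformin and by 7 in control.

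At the limit itself the narrowest members were chr1:155176909-155180908, with 4437 bp after metformin and 4000 bp in control, and chr18:3243341-3247341, with 9911 bp after metformin and 4001 bp in control. Just outside it, chr5:133557763-133561758 had 4054 bp after metformin and 3996 bp in control, and chr2:136873315-136877309 had 4991 bp after metformin and 3995 bp in control. These pairs differ from members by a few bases of control width.

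The 6 longest members had nearly the same extent in both lists. The longest, chr3:98606231-98620522, was 14452 bp after metformin and 14292 bp in control, with edges 129 and 31 bp further out after metformin. The next, chr6:30647025-30660109, was 12936 bp after metformin and 13085 bp in control. These were followed by chr5:180667805-180679104 with 10590 bp after metformin and 11300 bp in control, and chr1:8075015-8086131 with 10979 bp after metformin and 11117 bp in control. The fifth, chr6:10404833-10415689, was 10952 bp after metformin and 10857 bp in control, and the sixth, chr3:185645158-185655794, was 10768 bp after metformin and 10637 bp in control. Across these 6 the ratio of metformin to control width lay between 0.94 and 1.01.

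The next 4 by control width were cut or extended. Here chr6:86159859-86169988 was 11627 bp after metformin and 10130 bp in control, because its metformin interval also takes in the neighbouring member chr6:86155116-86159664. The member chr5:141694830-141704601 was 12565 bp after metformin and 9772 bp in control. On chromosome 12, chr12:6442517-6452187 had its longest metformin interval at 6998 bp, against 9671 bp in control, and on chromosome 17, chr17:48130104-48139754 had 8507 bp after metformin and 9651 bp in control. The last pair was divided over 4 and 3 metformin intervals that together lay on 92.6% and 92.1% of the control domain.

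Over all members the width changed little on balance. The median ratio of metformin to control width was 1.01, with quartiles of 0.93 and 1.12, and 462 members were wider after metformin, 382 narrower and 1 equal. That is 54.7% wider among those that differed (95% interval 51.3 to 58.1). Since widths chose the members and a limit was set on both lists, these values describe the selection and carry no test. An interval wider by 25% or more after metformin was found in 87 members (10.3%), beside 32.2% of all 21768 H3K4me3 interval pairs in which 1 control and 1 metformin interval overlapped each other only. One narrower by 20% or more was found in 58 members (6.86%), beside 17.0% of the same pairs, and nothing is read from this gap because the rule removes large changes near the limit. The order of widths was kept in part, with a Spearman rho of 0.53 between the lists over the 845 members, which share their libraries.

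**Figure D1:**
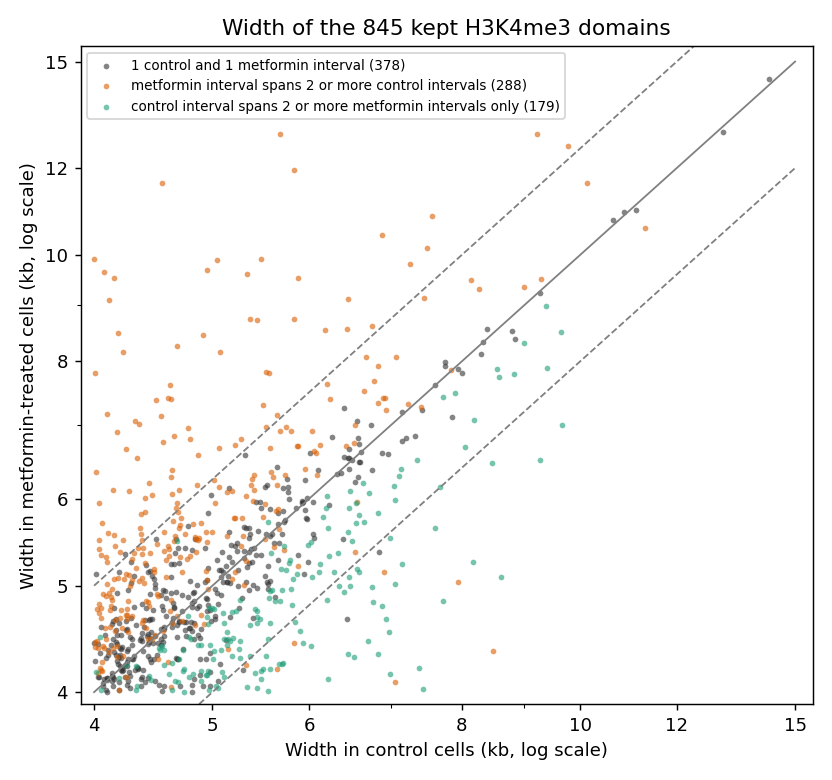
Each point is 1 of the 845 kept domains, with its control width in kb on the horizontal and its metformin width in kb on the vertical axis (both log scales). The solid line marks equal width and the dashed lines mark 25% wider and 20% narrower. The 378 members in which 1 control interval matches 1 metformin interval and no other lie along the solid line. The points beyond the upper line are nearly all metformin intervals that span 2 or more control intervals.

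Large changes of width went with gaps that opened or closed inside marked sequence. The metformin width is that of 1 interval, so a joined partner is wider and a divided domain narrower in part by construction. Among the 87 members that were wider by 25% or more, the metformin interval spanned 2 or more control intervals in 85 (97.7%), and a median of 91.6% of its length was already under control H3K4me3. Among the 58 members that were narrower by 20% or more, the control domain held 2 or more metformin intervals in 55 (94.8%), and a median of 89.9% of its length was still under metformin H3K4me3. In the 700 members in between, 196 had a partner that spanned several control intervals and 175 held several metformin intervals. Of the 378 members (44.7%) in which 1 interval matched 1 interval, 2 were wider by 25% or more and 3 narrower by 20% or more. Between 72.4% and 100% of each control domain, with a median of 96.8%, lay under metformin H3K4me3 of any width, and 735 of 845 were covered to 90% or more. The rule itself asks for a broad metformin interval and had removed the 391 control domains without one, so high coverage is largely set by the choice.

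The 5 members with the largest gain show this joining. The member chr6:10527741-10533415 had 12898 bp after metformin and 5675 bp in control, and its metformin interval spanned 2 control intervals. The member chr6:86155116-86159664, named above, had 11627 bp after metformin and 4549 bp in control. On chromosome 7, chr7:99094228-99100060 had 11954 bp after metformin and 5833 bp in control. Its metformin interval spanned 6 control intervals that covered 86.6% of it. The others were chr18:3243341-3247341, with 9911 bp after metformin and 4001 bp in control, and chr7:127222844-127226918, with 9649 bp after metformin and 4075 bp in control. All 5 metformin intervals were already under control H3K4me3 over 80.7% or more of their length.

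The 5 members with the largest loss were divided. The member chr6:31624777-31633264 had 4364 bp after metformin and 8488 bp in control. It held 2 metformin intervals that together lay on 97.3% of it. On chromosome 9, chr9:21552188-21560810 had 5091 bp after metformin and 8623 bp in control, and held 6 metformin intervals. The others were chr10:17271337-17278776, with 4030 bp after metformin and 7440 bp in control, chr8:145018558-145025944, with 4204 bp after metformin and 7387 bp in control, and chr1:154939810-154946863, with 4089 bp after metformin and 7054 bp in control. Metformin intervals lay on 85.3% or more of each of the 5 control domains.

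The positions of edges were compared where 1 interval matched 1 interval. This leaves out the members that were joined or divided, and the width limits on both lists also favour small shifts, so these values describe the selection. Over 756 edges of 378 members the median distance between the metformin and the control edge was 118 bp, less than the length of DNA in a nucleosome. Within 200 bp lay 502 edges (66.4%, 95% interval 62.9 to 69.8), and 4 edges were more than 1000 bp apart. In 2566 pairs that were from 2 kb to just under 4 kb wide in both lists, the median was 78 bp and 71.0% of 5132 edges (69.7 to 72.2) lay within 200 bp. Relative to control width the median shift was 2.40% in members and 2.96% in the narrower pairs. Outward and inward shifts were close to balance, with 54.8% of moved edges further out after metformin in members and 57.0% in the narrower pairs.

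**Figure D2:**
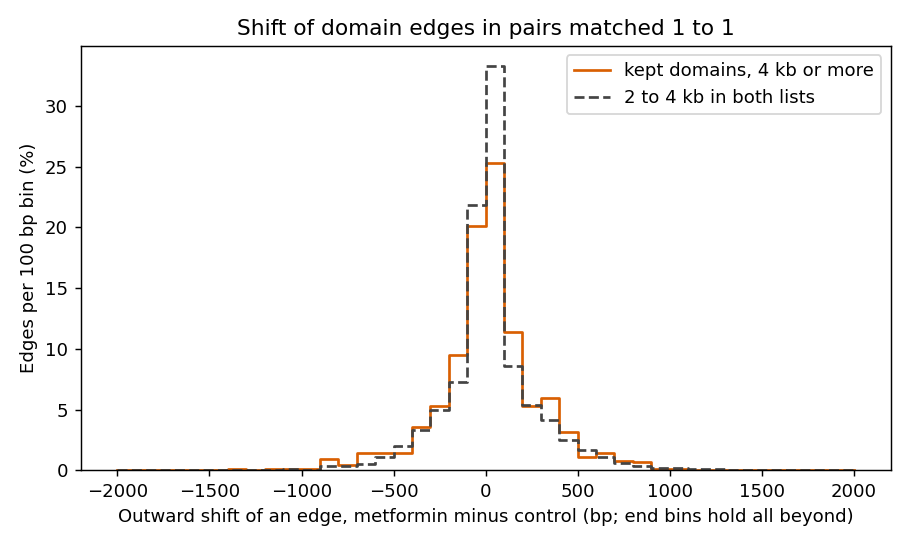
The horizontal axis gives the shift of an interval's edge in bp, metformin minus control and positive outward. The vertical axis gives the share of edges per 100 bp bin, for 756 edges of kept domains (solid) and 5132 edges of pairs of 2 to 4 kb (dashed), all matched 1 to 1. Both are centred near 0, with a median of 7 bp in kept domains and 9 bp in the narrower pairs.

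Broad domains held intervals with high values, but they were not simply the intervals with the highest ones. The authors' deposited value of each peak, read as a −log10 q, was used to rank intervals within a list. The highest value of a domain had a median of 54.8 in the metformin list and 47.0 in the control list, and 80.7% of domains in the metformin list and 80.6% in the control list were among the 10% of intervals with the highest values there. Among the 845 intervals with the highest values, kept domains numbered 200 in the metformin list and 213 in the control list. Values of different lists were not compared as signal levels, since read depth is unknown. Within the lists, the highest value and the width of kept domains had a Spearman rho of 0.08 after metformin and 0.20 in control. The order of highest values was shared between the lists with a rho of 0.70.

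The 5 members with the highest control values kept high values after metformin. The first, chr19:39922727-39928123, had a −log10 q of 135 after metformin and 151 in control, at widths of 4671 bp after metformin and 5397 bp in control. The member chr14:102546531-102552959 had values of 102 after metformin and 144 in control, and chr12:46117551-46124084 had 72.2 after metformin and 141 in control. They were followed by chr12:44196692-44202046 with 98.9 after metformin and 119 in control, and chr19:39138310-39144638 with 148 after metformin and 117 in control. All 5 were between 4671 and 6750 bp wide in both lists, so none was among the longest.

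Kept domains were among the highest-ranked intervals more often than intervals that were broad in a single list. Of kept domains, 80.7% (95% interval 77.9 to 83.3) were among the 10% with the highest values of the metformin list, against 64.0% of the 750 that were broad after metformin only (60.4 to 67.4). In the control list the shares were 80.6% of kept domains (77.8 to 83.2) and 71.4% of the 391 that were broad in control only (66.6 to 75.8). The median width of the 845 metformin partners was 5026 bp, against 4509 bp for those broad after metformin only, and that of the members in control was 4942 bp, against 4356 bp for those broad in control only. Intervals of 2 to 4 kb were among the 10% with the highest values in 40.0% of 7177 cases in the metformin list and 45.0% of 6167 in the control list. An interval's highest value is taken over its sub-peaks, the local maxima described below, and the classes differ in their number. The median was 14 in kept domains and 7 at 2 to 4 kb in both lists. It was 12 in those broad after metformin only and 11 in those broad in control only. The part of this number in the shares was not tested.

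A broad domain was a row of many sub-peaks, the local maxima that the lists give as lettered lines of 1 interval. Kept domains held 7 to 40 sub-peaks after metformin and 7 to 43 in control, with a median of 14 in both. Per kb of domain this was a median of 2.72 after metformin and 2.69 in control. Intervals of 2 to 4 kb had similar medians, 2.56 after metformin and 2.57 in control. The spacing of sub-peaks was not measured. By control number, the longest member, chr3:98606231-98620522, held most, with 40 sub-peaks after metformin and 43 in control. Next came chr6:30647025-30660109 with 40 after metformin and 36 in control, chr1:8075015-8086131 with 29 after metformin and 32 in control, chr3:185645158-185655794 with 31 after metformin and 30 in control, and chr6:10404833-10415689 with 31 after metformin and 30 in control. The member chr6:86159859-86169988 ties with the last of these, at 31 after metformin and 30 in control. After metformin the order differed. Among the members named here, chr7:99094228-99100060 with 35, chr6:10527741-10533415 with 34 and chr5:141694830-141704601 with 33 came above those at 31.

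Values fell off towards both ends of a domain. Peak calling sets where an interval ends, so lower values there are in part built in and describe the called intervals. The lists give no sub-peak positions, and the letters were taken to run along the chromosome. In the middle of that order the median sub-peak of kept domains had 58.3% of the domain's highest value after metformin and 60.5% in control. At the first sub-peak it had 14.5% after metformin and 16.0% in control, and at the last 16.2% after metformin and 18.5% in control. The highest sub-peak lay in the middle of 3 equal parts of the order in 418 of 845 domains after metformin (49.5%, 95% interval 46.0 to 52.9) and in 423 in control (50.1%, 46.6 to 53.5). At 2 to 4 kb with 5 or more sub-peaks, these shares were 41.3% after metformin and 40.8% in control. The highest sub-peak of kept domains fell in the same part in both lists in 514 domains (60.8%), and no background share is given for this. Intervals of 2 to 4 kb with 5 or more sub-peaks had less steep ends, at 28.0% after metformin and 29.7% in control for the first sub-peak, but they hold fewer sub-peaks, so the ends of the order are not the same distance from the middle.

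**Figure D3:**
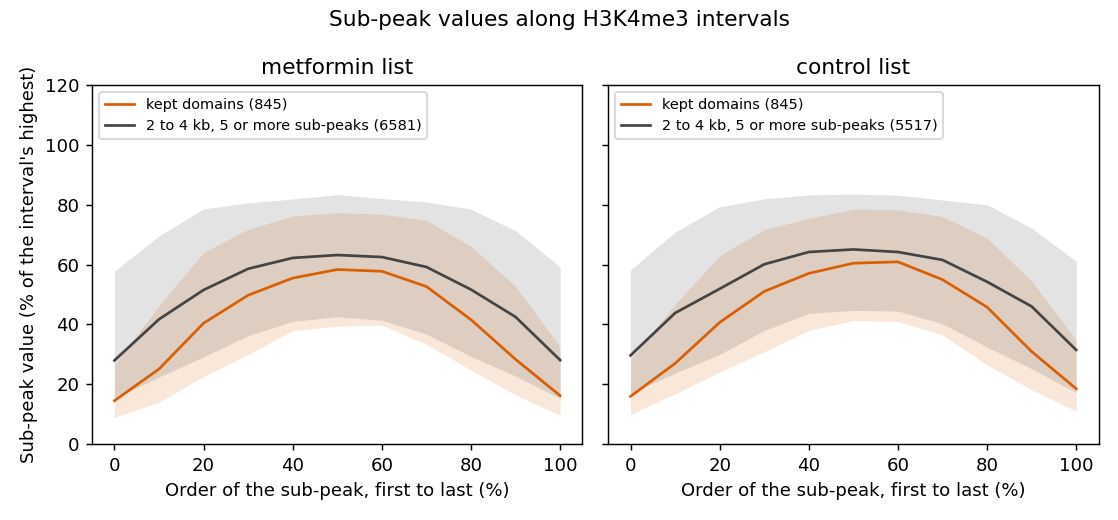
Sub-peak values as a percentage of the interval's highest value are plotted against the order of the sub-peaks from first to last, in the metformin list (left) and the control list (right). Lines are medians and bands are quartiles over kept domains (845 per list) and intervals of 2 to 4 kb with 5 or more sub-peaks. Medians of kept domains climb from 14.5% at the first sub-peak to 58.3% in the middle in the metformin list.

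H3K27me3, which played no part in the choice of members, lay on very few of them. Of 845 kept domains, 9 (1.07%, 95% interval 0.49 to 2.01) were overlapped by H3K27me3 of metformin-treated cells and 7 (0.83%, 0.33 to 1.70) by that of control cells. The background over all 50585 control H3K4me3 intervals was 3.45% with the metformin H3K27me3 list and 2.78% with the control list, although those intervals are shorter and so harder to touch. By length, 0.34% of the members' sequence was under metformin H3K27me3 and 0.14% under control H3K27me3, against 1.40% under metformin and 1.04% under control H3K27me3 for all control H3K4me3 sequence. Intervals of 2 to 4 kb in both lists were overlapped in 1.94% of 4424 cases after metformin (1.56 to 2.40) and in 1.33% in control (1.02 to 1.72), so the intervals of this class and of the members overlap. Domains that were broad after metformin only carried it more often, at 3.47% with the metformin list (2.28 to 5.04), and this interval does not overlap that of the members. The same 750 domains had 2.53% with the control list (1.53 to 3.93), an interval that overlaps that of the members. Domains that were broad in control only were also seldom overlapped, in 1 of 391 with the metformin list (0.26%, 0.0065 to 1.42) and in 5 with the control list (1.28%, 0.42 to 2.96), so a low share was not particular to kept domains.

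Kept domains had H3K27me3 close by less often than narrower pairs and domains broad after metformin only, but not less often than domains broad in control only. An H3K27me3 interval lay on or within 10 kb of 62 members in metformin-treated cells (7.34%, 95% interval 5.67 to 9.31) and of 54 in control cells (6.39%, 4.84 to 8.26), 44 of them the same domains. For pairs of 2 to 4 kb the shares were 13.8% after metformin (12.8 to 14.9) and 11.8% in control (10.9 to 12.8), and for domains broad after metformin only they were 15.3% after metformin (12.8 to 18.1) and 13.6% in control (11.2 to 16.3). Neither interval overlaps that of the members in the same condition. Domains broad in control only were like the members, at 6.91% after metformin (4.60 to 9.89) and 5.88% in control (3.77 to 8.70). Their median distance to H3K27me3 was 103 kb with either list, against 83.9 kb after metformin and 91.0 kb in control for members. Over all control H3K4me3 intervals the shares on or within 10 kb were 18.0% after metformin and 15.9% in control. H3K27me3 lay on or within 50 kb of 33.7% of members after metformin and 30.2% in control, against 40.1% of the narrower pairs after metformin and 37.9% in control. For domains broad in control only, these shares were 31.7% after metformin and 29.9% in control. They were 41.6% after metformin and 38.9% in control over all control H3K4me3 intervals. Kept domains also had higher values than these classes, and the part of that in the distance to H3K27me3 was not tested.

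**Figure D4:**
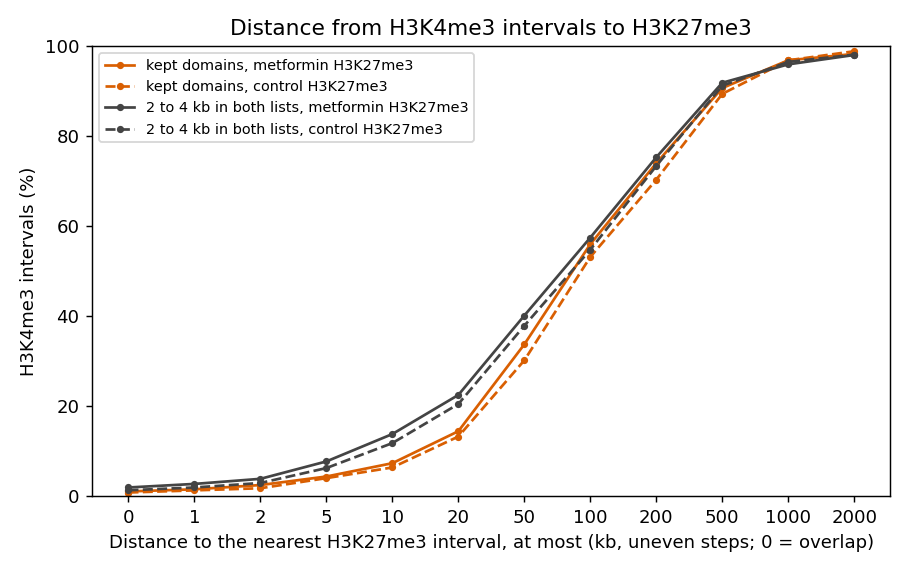
The share of H3K4me3 intervals with an H3K27me3 interval at or within a given distance, in kb on uneven steps, is shown for the 845 kept domains and 4424 intervals of 2 to 4 kb in both lists. Solid lines use the metformin and dashed lines the control H3K27me3 list. At 10 and 20 kb, 7.34% and 14.4% of kept domains had H3K27me3 after metformin, against 13.8% and 22.5% of narrower intervals. At 100 kb the shares were 56.0% against 57.4% after metformin and 53.1% against 54.7% in control. The lines also lie close together from 500 kb.

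The 10 members with H3K27me3 in either condition numbered 6 in both, 3 after metformin only and 1 in control only. The 2 with most of it were chr12:4379919-4385361, with 4135 bp under H3K27me3 after metformin and 2346 bp in control, and chr1:152079388-152084369, with 4003 bp after metformin and 354 bp in control. They are 5443 and 4982 bp wide in control, so most of each domain carried both marks after metformin. On chromosome 3, chr3:128205963-128211240 had 2206 bp after metformin and 793 bp in control. The member chr6:6003272-6010201 had 1201 bp after metformin and 1045 bp in control, and chr12:48296175-48300460 had 973 bp after metformin and 981 bp in control. The member chr3:195266997-195271573 had 370 bp after metformin and 521 bp in control. After metformin only, H3K27me3 lay on 1304 bp of chr14:69724650-69728806. In a bulk library, nucleosomes with both marks and a mixture of cells with either mark cannot be told apart.

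The domains were unevenly spread over the chromosomes. Chromosome 6 held 112 of the 845 (13.3%) and chromosome 12 held 82 (9.70%). As a share of all control intervals of 2 kb or more, kept domains made up 11.4% over all chromosomes (845 of 7403). The share was 18.2% on chromosome 6 (95% interval 15.2 to 21.5) and 15.6% on chromosome 12 (12.6 to 18.9). The lowest shares were 5.19% on chromosome 13 (4 of 77, 1.43 to 12.8), 5.34% on chromosome X (7 of 131, 2.18 to 10.7), 6.15% on chromosome 21 (4 of 65, 1.70 to 15.0) and 7.35% on chromosome 11 (25 of 340, 4.81 to 10.7).

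The values of intervals moved with these shares on most of the chromosomes named. The median highest −log10 q of control intervals of 2 kb or more was 44.5 on chromosome 6 and 40.6 on chromosome 12, against 34.3 over all chromosomes, 29.8 on chromosome 11, 23.3 on chromosome 13 and 22.9 on chromosome X. Chromosome 21 was an exception, with a low share and a median of 33.1. Over 23 chromosomes, which share 1 library, the kept share and this median had a Spearman rho of 0.75. The median includes the kept domains themselves, which had higher values than narrower intervals, so part of this rho is built in. The part of interval values in the shares was not tested. The median ratio of metformin to control width was 1.01 on both chromosome 6 and chromosome 12. Over the 23 chromosomes it ran from 0.97 on chromosome 2 (47 members) to 1.15 on chromosomes 18 (10 members) and 21 (4 members).

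**Figure D5:**
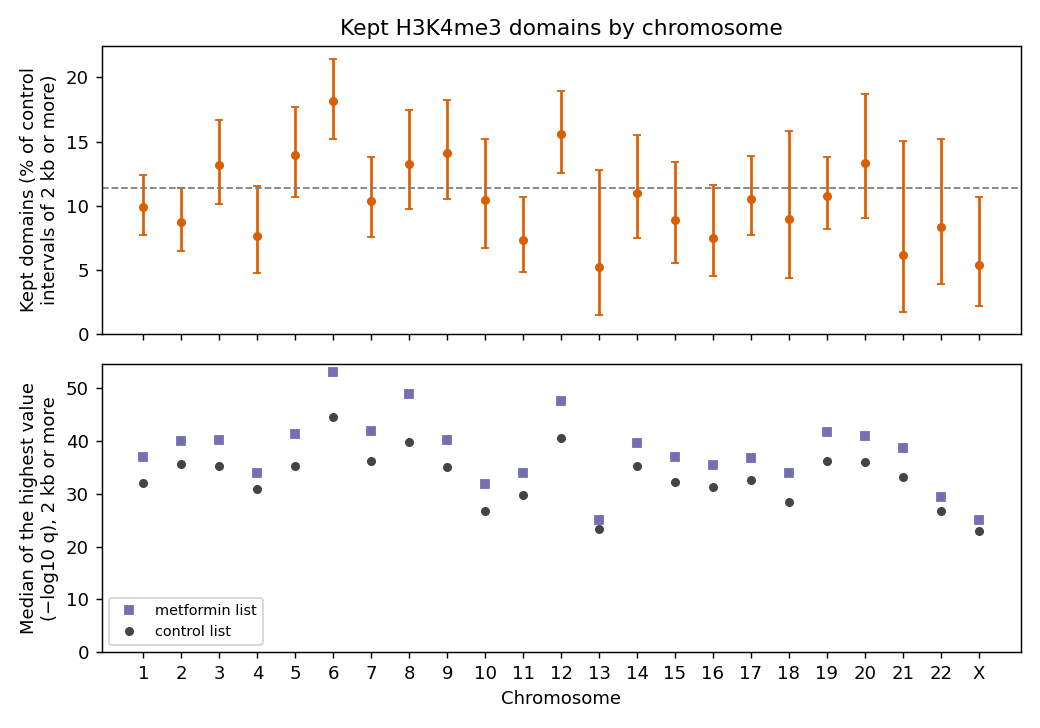
The upper panel gives kept domains as a percentage of control H3K4me3 intervals of 2 kb or more on each chromosome, with exact 95% binomial intervals and a dashed line at 11.4%, the share over all chromosomes. The lower panel gives the median highest −log10 q of intervals of 2 kb or more in each list. Chromosomes 6 and 12 have the highest shares, 18.2% and 15.6%, and are also high in the lower panel.

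Part of the domains lay close to another one. Runs of members no more than 100 kb apart numbered 84 and took in 199 domains (23.6%), and 21 runs held 3 or more. The runs described here were chosen after their values were seen. On chromosome 6, chr6:26025812-26314836 held 5 members in 289 kb, in the stretch where the main cluster of replication-dependent histone genes lies. Their widths ran from 4488 to 6654 bp after metformin and from 4676 to 6463 bp in control. H3K4me3 covered 28.7% of the run after metformin and 29.2% in control. No H3K27me3 interval lay in it in either condition, as was the case for most of the 21 runs. The 2 Mb from 26 to 28 Mb held 11 members, or 17.2% of its 64 control intervals of 2 kb or more (95% interval 8.90 to 28.7), a share near that of the whole chromosome.

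From 29 to 33 Mb on the same arm, in the major histocompatibility region, kept domains made up 19 of 55 control intervals of 2 kb or more (34.5%, 95% interval 22.2 to 48.6, which overlaps that of 26 to 28 Mb). The share over all of chromosome 6 was 18.2%, and this window also holds runs chosen after their values were seen. The median highest −log10 q of those 55 was 48.3, and its part in the share was not tested. Of these 19 members, 8 were wider and 11 narrower after metformin. The run chr6:31624777-31808248 held 4 members, of 4364 to 8072 bp after metformin and 6390 to 8488 bp in control. No H3K27me3 lay in that run after metformin, and 778 bp did in control. A pair of further runs lay nearby with H3K27me3 between their domains: chr6:31364971-31511852, with 20676 bp of it after metformin and 17621 bp in control, and chr6:32818982-32945215, with 15126 bp after metformin and 10970 bp in control. No member of these runs was itself overlapped by H3K27me3.

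A pair of runs lay in homeobox gene clusters, which encode the transcription factors that pattern the body axis and are a textbook target of Polycomb where they are silent. On chromosome 17, in the HOXB cluster, chr17:46617706-46689505 held 4 members in 71.8 kb. Their widths were 4503, 7983, 5170 and 5568 bp after metformin, against 4567, 7753, 5745 and 4371 bp in control. On chromosome 12, in the HOXC cluster, chr12:54378942-54416406 held 3 members, with widths of 4795, 5639 and 5459 bp after metformin, against 4549, 5331 and 4501 bp in control. H3K4me3 covered 58.6% of the HOXB run after metformin and 56.9% in control, and 80.0% of the HOXC run after metformin and 73.9% in control. Neither run held an H3K27me3 interval in either list. Most of the 21 runs of 3 or more members held none, so this was not particular to the homeobox clusters.

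Chromosome 19 held 4 runs of 3 or more members. A pair of them is described here, from a stretch with many KRAB zinc finger genes, a large family of transcriptional repressors. The run chr19:36906116-37161134 held 5 members, of 4094 to 6713 bp after metformin and 4406 to 5217 bp in control. Their highest −log10 q values ran from 70.7 to 93.3 after metformin and from 57.0 to 107 in control. Next to it, chr19:37261312-37409254 held 3 members with values of 104 to 119 after metformin and 77.5 to 87.4 in control. From 36 to 38 Mb, 13 of 47 control intervals of 2 kb or more were kept domains (27.7%, 95% interval 15.6 to 42.6). The share over all of chromosome 19 was 10.8%, and this window holds runs chosen after their values were seen. The median highest value of those 47 was 62.6, and its part in the share was not tested. A further pair of runs had H3K4me3 over most of their length: chr7:130582634-130646520, with 4 members and 62.7% covered after metformin against 65.0% in control, and chr20:52195112-52229250, with 3 members and 76.3% covered after metformin against 75.4% in control.

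Most domains had a neighbouring interval close by, as narrower intervals did. An H3K4me3 interval outside the set lay within 1 kb of 83.2% of the metformin partners and of 79.6% of the members in the control list, at a median gap of 274 bp after metformin and 296 bp in control. For the 4424 control intervals of 2 to 4 kb that overlapped a metformin interval of that width, the share in the control list, counted the same way, was 79.2%. The smallest gap was 165 bp in both lists.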

How the data were processed

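Values come from 4 ChIP peak lists, and the 2 inputs were not analysed here. Per the submitters' processing notes, Trimmomatic 0.38, Bowtie and MACS2 were used with hg19 (GRCh37). No source used here gives their options or background libraries. Each deposited list gives 1 value per line, read as a −log10 q-value from its smallest values (1.31 for H3K4me3 and 1.01 or less for H3K27me3). Read depth is unknown. Lines with the same interval were joined and carry their highest value. Widths are end minus start, and printed positions are 1-based. Overlap needs 1 bp. Shares have exact Clopper-Pearson 95% intervals. The members and comparison classes were chosen with earlier results of these data known. Regions named by rule are the 10 longest, the 5 with the largest gain, the largest loss, most H3K27me3, most sub-peaks and the highest value, and those at the limit. Gene positions, gene lists, cell type markers and sequences were not used here, because the tables at hand are on another build. Alternatives were other width limits, merging, overlap, value threshold, pairing and direction. Overlap code was tested on a shifted copy of the control list, in which part of the 1236 broad intervals were cut short. It recovered 100% of those left whole with 0% false ones. Divided and joined intervals were not simulated. On the real lists the code gave the counts of bedtools 2.31.1. Python 3.11.15, pandas 2.3.3, numpy 2.4.6, scipy 1.17.1 and matplotlib 3.10.9 were used.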

Additional observations from a re-analysis of the deposited data

How the results depend on the processing

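No paired analysis was possible because each condition has 1 library per mark, and leaving out a replicate would leave none. The number of kept domains (845) follows the width limit: it was 2406 at 3000 bp, 297 at 5000 bp and 4816 with intervals within 1 kb merged first. Kept domains were 68.4% of control broad intervals, and 78.3%, 64.8% and 85.6% under these 3 settings. With merging, the median width ratio was 1.03 in place of 1.01, and H3K27me3 lay on 3.36% of domains after metformin and 2.72% in control, in place of 1.07% and 0.83%; merged intervals also take in the gaps between intervals. The share of domains wider after metformin stayed between 53.2% and 56.7% under all 7 alternatives, but its 95% interval included 50% at the 5000 bp limit (47.3 to 59.0) and in pairs matched 1 to 1 (48.4 to 58.7). Asking for 50% overlap left 842 domains and a highest value of 20 or more left 828. Depth is unknown, and its part in the widths and gaps was not tested.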
